A study of Mus musculus with 12 samples.

Results

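The nuclear-encoded subunits of oxidative phosphorylation were followed in ductal macrophages across the mammary cycle of the mouse. A gene was taken as a member when its mouse symbol began with Ndufa, Ndufb, Ndufc, Ndufs, Ndufv, Uqcr, Atp5, Cox4, Cox5, Cox6, Cox7 or Cox8, or was Cyc1, Sdha, Sdhb, Sdhc or Sdhd. Of the 27179 genes in the count table, 88 met this rule once 5 pseudogenes and 8 Ndufaf assembly factors were left out. They comprised 40 genes of complex I, 4 of complex II, 9 of complex III, 18 of complex IV and 17 of complex V. Of these, 81 had enough reads to be tested, among 12672 genes tested in all. The 7 that did not pass were Uqcr11, Cox4i2, Cox6a2, Cox7b2, Cox8b, Cox8c and Atp5g2.

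All mice were female and of the C57BL/6 background, with no further allele or treatment named. Macrophages of the mammary ducts came from 4 stages with 3 libraries each, namely virgin, pregnant at day 16.5, lactating, and post-weaning, collected one month after weaning. Each library was built from 2000 sorted cells. No source used here gives the age of the mice, the surface markers of the sort, or whether a library holds 1 animal or several.

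Oxidative phosphorylation takes place in the inner mitochondrial membrane. Complex I oxidises NADH and complex II oxidises succinate, complex III passes the electrons to cytochrome c, and complex IV hands them to oxygen. Complexes I, III and IV pump protons, and complex V, the ATP synthase, uses the returning protons to make ATP. All complexes except II also hold a few subunits encoded by mitochondrial DNA, so most of the parts are made from nuclear genes and imported. In macrophages the balance between this pathway and glycolysis is known to shift with activation, and cells stimulated through alternative (IL-4) signalling rely on it more than cells stimulated with endotoxin.

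Library totals ranged from 6926273 to 21204704 counts. All 12 macrophage markers examined, among them Adgre1, Csf1r and C1qa, had counts at every stage. Their summed share of counts averaged 1.98% ± 0.0426 (SD, n = 3) for virgin, 4.33% ± 0.0821 for pregnant, 2.37% ± 0.954 for lactating and 2.7% ± 0.178 for post-weaning libraries. Most of the rise in pregnancy lay in Lyz2, with mean CPM (counts relative to the TMM-scaled library total) of 3930 in virgin and 26200 in pregnant libraries. Csf1r, C1qa and C1qc were also higher in pregnancy by mean CPM. The other markers were lower, such as Cd14 at 4300 in virgin and 2020 in pregnant libraries. The third lactating library stood apart. Milk and secretory genes took 7.43% there, while the first lactating library had 0.204% and the second 0.2%, its macrophage markers took 1.29%, and the nuclear RNAs Malat1 and Neat1 took 4.1%. Calls and medians of the members in comparisons with lactating libraries are given with and without it.

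Transcripts of the 88 genes took up the largest share of the library at day 16.5 of pregnancy. Virgin libraries gave 0.769%, 0.598% and 0.667% of their counts to these genes, and pregnant libraries 0.99%, 1.08% and 1.14%. In the lactating libraries they made up 0.58%, 0.548% and 0.704%, and after weaning 0.685%, 0.666% and 0.627%. The pregnant libraries were above all 9 others, while the ranges of the other stages overlapped. In libraries of this kind fewer cells of a type and less RNA per cell cannot be told apart. With the milk and secretory genes left out of the totals, the means were 0.679% ± 0.0858 for virgin, 1.08% ± 0.0689 for pregnant, 0.63% ± 0.114 for lactating and 0.661% ± 0.03 for post-weaning libraries (SD, n = 3).

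The higher level in pregnancy ran through the members as a group, with a modest size for each gene. Of the 81 tested members, 70 had their highest stage mean in pregnancy, where 27.5% of all tested genes did. Of the remaining 11, the lactating mean was highest for 6 (Ndufa7, Ndufa4l2, Uqcrc1, Cox7a2, Cox7a2l and Atp5b), against 28.3% of all genes, and the post-weaning mean for 5, such as Ndufa6, Ndufa10 and Cox7a1, against 21.1%. The virgin mean was highest for 0 members and for 23% of all genes. For 26 of 81 members, each pregnant library was above every one of the 9 others, a pattern met by 3.35% of all genes tested. These were 10 genes of complex I, none of complex II, 4 of complex III, 6 of complex IV and 6 of complex V.

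**Figure D1:**
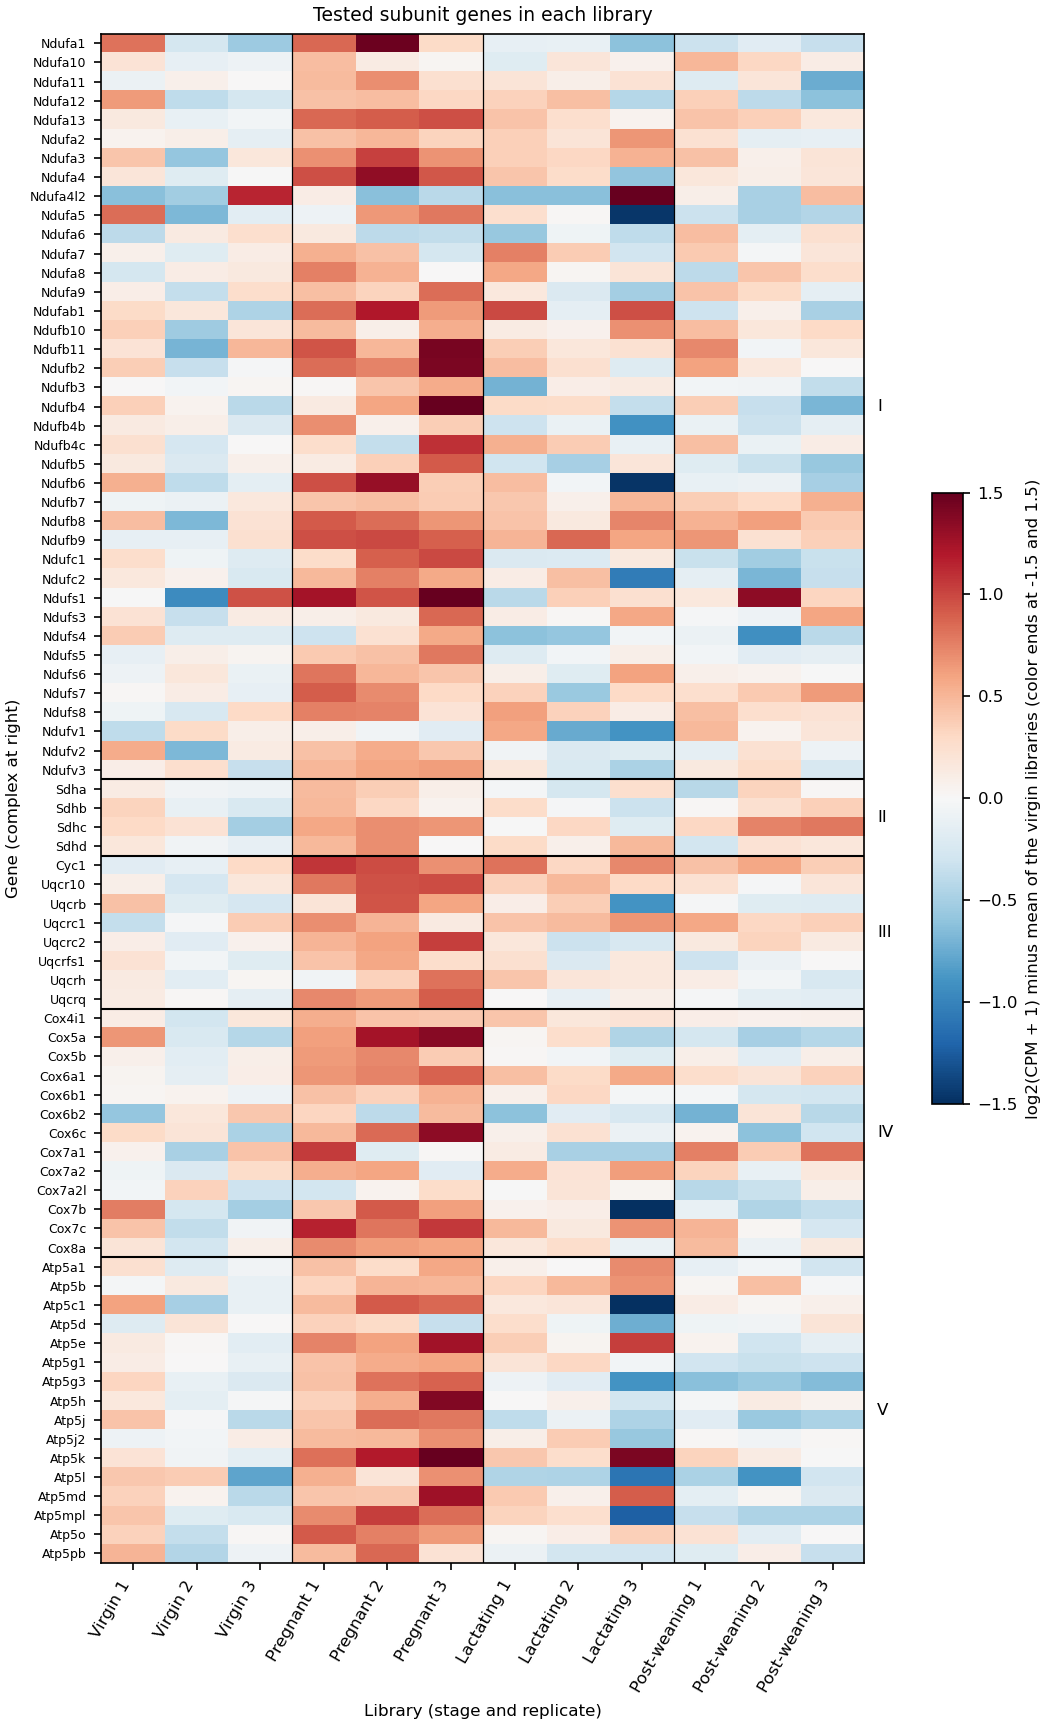
Each row is a tested subunit gene, with 1 of the 81 left out, and each column a library; color gives log2(CPM + 1) minus the mean of the virgin libraries, with the scale ending at -1.5 and 1.5. The pregnant columns are red for most rows in all 5 complexes, and the third lactating library holds the darkest blue cells, among them Ndufb6, Cox7b and Atp5c1.

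Against virgin libraries, 78 of 81 members had a log2 fold change above 0 in pregnancy, where 51.6% of all tested genes did. The median log2 fold change was 0.57 for the members and 0.03 for all genes, and the members' median corresponds to 1.49-fold. The 3 members below 0 were Ndufa4l2 at -1.57, Ndufa6 at -0.23 and Ndufv1 at -0.07. The pregnant libraries were all above the virgin ones for 42 of 81 members, against 13.6% of all genes, and lay all below for 0 members, against 10.7%. Gene by gene, edgeR's quasi-likelihood test with Benjamini-Hochberg adjustment over all tested genes called 1 member higher, Ndufa13, where it called 0.442% of all genes higher. At an unadjusted p under 0.05 there were 33 members, all higher, where 5.88% of all genes were. The size of this median was known from earlier work on these libraries and is not independent evidence.

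The number of single genes called moved with the libraries and settings used. Without the third lactating library, 7 members rose in pregnancy against virgin, where 1.18% of all genes did. These were Ndufa13, Ndufa4, Ndufb9, Cyc1, Uqcr10, Cox6a1 and Atp5k. The median without it was 0.58. Leaving out the first virgin library, which was the highest virgin library for 48 of 81 members, gave a median of 0.71, and leaving out the second gave 0.52.

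Other measures moved with the pregnant libraries. The summed share of 14 immediate early and stress genes such as Fos, Jun and Hspa1a, a list added after the values were seen, ran from 1.24% to 2.15% in virgin libraries and from 0.478% to 0.661% in pregnant ones. It ran from 0.834% to 1.01% in lactation and from 1.55% to 1.73% after weaning. All 14 of these genes had counts at every stage. The nuclear RNAs Malat1 and Neat1, both with counts at every stage, took 0.847% to 1.23% in virgin libraries, 0.539% to 0.782% in pregnant and 0.574% to 1.05% in post-weaning ones, so that every pregnant library was below every virgin one. Markers of fibroblasts took 0.00238% to 0.0389% in virgin and 0.000247% to 0.00075% in pregnant libraries, where Pdgfra was at 0. Markers of endothelium took 0.000943% to 0.00538% and 8.02e-05% to 0.000202%, with Tek and Emcn at 0 in pregnancy. Both lists were thus low throughout and lower in pregnant than in virgin libraries. Milk and secretory genes took 0.0688% to 0.104% in virgin libraries, with Csn1s1, Csn1s2a, Csn1s2b, Wap, Glycam1 and Btn1a1 at 0. In pregnant libraries they took 0.27% to 1.52% with all 12 genes detected, and in post-weaning libraries 0.167% to 0.268% with Csn1s2b, Wap and Glycam1 at 0. Luminal and basal epithelial markers took 0.0156% to 0.0862% in virgin and 0.0254% to 0.0343% in pregnant libraries. That sum joins genes that went opposite ways by mean CPM. Epcam stood at 38.9 in virgin and 189 in pregnant libraries, and Cldn3 and Cldn7 were slightly higher in pregnancy. The other genes of the list were lower, such as Krt19 at 113 in virgin and 18.1 in pregnant libraries. The part of these differences, and of the macrophage markers above, in the subunit levels was not tested, beyond the shares without milk genes.

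**Figure D2:**
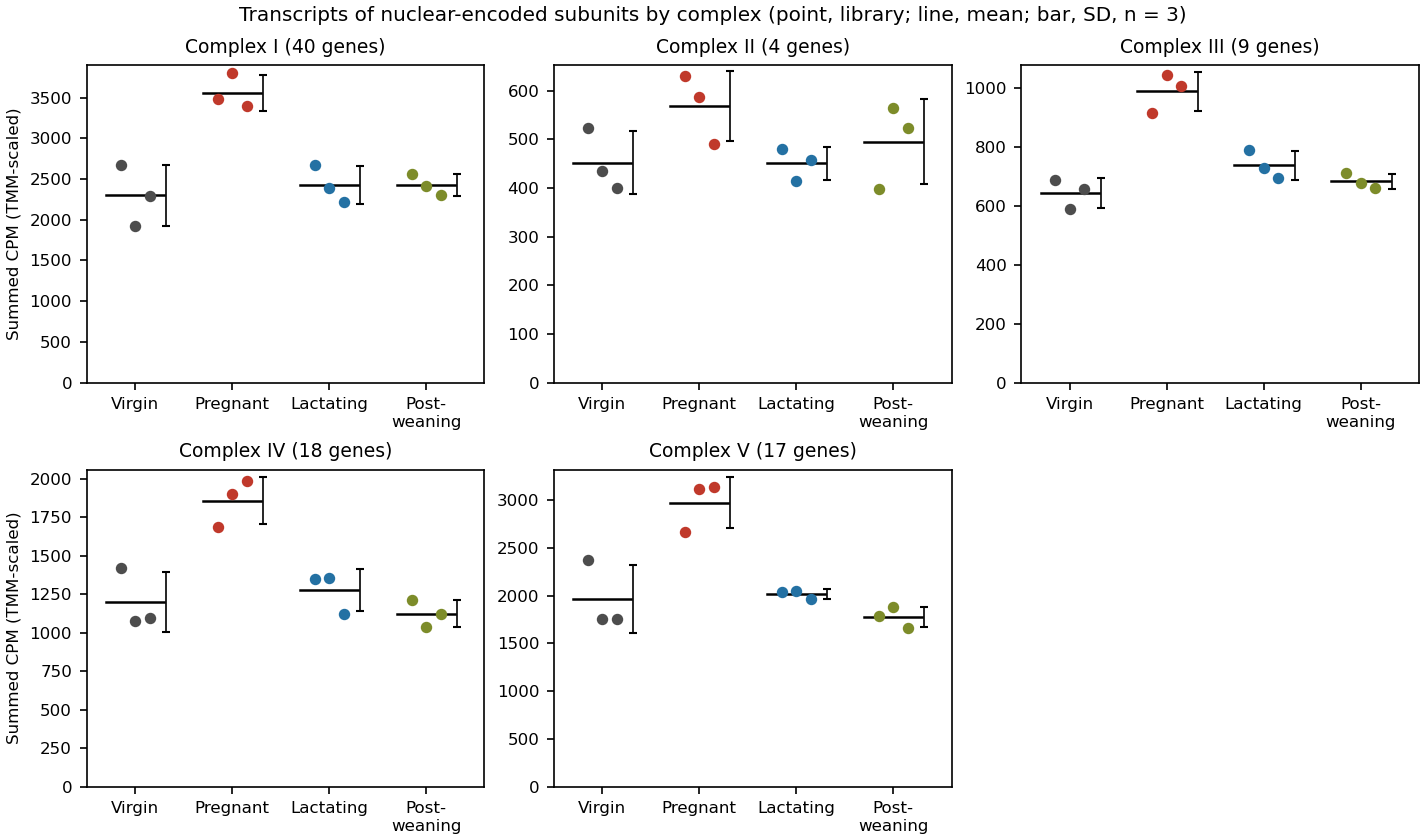
Summed CPM (counts relative to the TMM-scaled library total) of the subunit genes of each complex; points are libraries, lines are means and bars are SD (n = 3). In complexes I, III, IV and V the pregnant points lie above all others, while in complex II the stages overlap.

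Pregnancy was separated from the other stages in 4 of the 5 complexes. Levels are in CPM, read counts relative to the TMM-scaled library total. Complex I summed to 2298 ± 376 CPM for virgin, 3558 ± 217 for pregnant, 2425 ± 234 for lactating and 2426 ± 133 for post-weaning libraries (SD, n = 3). Complex III summed to 644 ± 51, 989 ± 65, 738 ± 49 and 683 ± 26 CPM in the same order. Complex IV summed to 1199 ± 193, 1856 ± 153, 1277 ± 134 and 1124 ± 88 CPM. Complex V summed to 1961 ± 357, 2970 ± 267, 2019 ± 49 and 1776 ± 109 CPM. For these complexes the lowest pregnant library was above the highest library of any other stage. Complex II summed to 452 ± 64, 568 ± 71, 450 ± 33 and 495 ± 87 CPM in that order. Without the third lactating library the lactating sums were 2676 and 2385 CPM for complex I, 479 and 414 for II, 791 and 728 for III, 1350 and 1358 for IV, and 2042 and 2052 for V. In complex II the lowest pregnant library, at 490 CPM, was below the highest virgin library, at 523 CPM. The median log2 fold change of pregnant against virgin libraries was 0.55 for complex I, 0.40 for II, 0.66 for III, 0.60 for IV and 0.68 for V. Pregnant libraries lay above all virgin ones for 18 of 40, 1 of 4, 5 of 8, 7 of 13 and 11 of 16 tested genes, against 13.6% of all genes tested. Differences between complexes were not tested.

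In complex I, the NADH-oxidising entry to the chain, Ndufa13 was the member called in pregnancy. Its product, also known as GRIM-19, is a supernumerary subunit that complex I needs for its assembly. The gene (Entrez 67184) spans chr8:69894163-69902558. It stood at 95, 79.2 and 83.2 CPM in virgin, 156, 161 and 168 CPM in pregnant, 115, 102 and 88.5 CPM in lactating, and 115, 110 and 95.4 CPM in post-weaning libraries. The 3 pregnant libraries were above all 9 others, and the other stages overlapped. Its log2 fold change in pregnancy against virgin was 0.92 ± 0.19 (SE; edgeR adjusted p = 0.0383), a 1.89-fold rise. The adjusted p ranged from 2.49e-05 to 0.169 over the other settings. Leaving out 1 library ended the call for each of the virgin, pregnant and post-weaning libraries and for the second lactating one, with adjusted p from 0.058 to 0.169 and log2 fold changes from 0.86 to 1.02. The call was also lost with no filter on low counts (adjusted p = 0.062) and in a fit of these 2 stages alone (adjusted p = 0.0555), where Ndufa4 was the member called.

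Ndufa4 and Ndufb9 came next in complex I by the test of any stage difference. Ndufa4 carries a complex I symbol, although its protein is now placed with complex IV. It stood at 143, 111 and 125 CPM in virgin, 246, 317 and 241 CPM in pregnant, 168, 152 and 82.8 CPM in lactating, and 141, 134 and 143 CPM in post-weaning libraries. Pregnant libraries did not overlap with any other stage, at a log2 fold change of 1.09 ± 0.25 over virgin (adjusted p = 0.069, and 0.0044 without the third lactating library). Ndufb9, a supernumerary subunit of the membrane arm, stood at 55.8, 55.9 and 72.2 CPM in virgin, 120, 122 and 114 CPM in pregnant, 87.2, 111 and 92.3 CPM in lactating, and 96.5, 71.7 and 78.3 CPM in post-weaning libraries. Its lowest pregnant library was above the highest of the other 9, with a log2 fold change of 0.95 ± 0.21 (adjusted p = 0.0538, and 0.0249 without the third lactating library).

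The abundant small subunits Ndufa1 and Ndufa3 showed more scatter. Ndufa1, an accessory subunit with a single membrane helix, stood at 248, 117 and 96.5 CPM in virgin libraries and 257, 393 and 173 CPM in pregnant ones, so that the groups overlapped (log2 fold change 0.83 ± 0.37, adjusted p = 0.393). Ndufa3 stood at 104, 51.4 and 87.4 CPM in virgin and 125, 159 and 124 CPM in pregnant libraries, which did not overlap (0.75 ± 0.26, adjusted p = 0.255). Core subunits of complex I are given for comparison. Ndufv1, which carries the NADH site, had a log2 fold change of -0.07 ± 0.38 (adjusted p = 0.994), and Ndufs1, with several iron-sulfur clusters, one of 1.09 ± 0.48 (adjusted p = 0.394). These core genes were chosen for their role after their values were seen.

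Complex II, succinate dehydrogenase, also works in the citric acid cycle and is made from 4 nuclear genes alone. Sdha, the flavin-bearing catalytic subunit, stood at 260, 230 and 225 CPM in virgin, 331, 307 and 253 CPM in pregnant, 233, 198 and 283 CPM in lactating, and 178, 299 and 240 CPM in post-weaning libraries. Sdhb, the iron-sulfur subunit, stood at 211, 155 and 143 CPM, then 235, 208 and 173 CPM, then 203, 165 and 134 CPM, and then 170, 198 and 214 CPM in the same order of stages. For both genes the pregnant libraries overlapped with those of every other stage. Sdhc, a membrane anchor, stood at 44.5, 42 and 25 CPM in virgin and 54.4, 59 and 57.6 CPM in pregnant libraries, which did not overlap, and at 44.9, 61 and 62.9 CPM in post-weaning libraries, which overlapped with the pregnant. Log2 fold changes of pregnant against virgin were 0.32 ± 0.22 for Sdha, 0.27 ± 0.22 for Sdhb, 0.62 ± 0.29 for Sdhc and 0.48 ± 0.67 for the other anchor, Sdhd, with adjusted p of 0.698, 0.775, 0.438 and 0.929. None of the 4 passed the test in any of the 6 comparisons between stages.

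In complex III, the cytochrome bc1 complex, the small subunits Uqcrq and Uqcr10 separated pregnancy most cleanly. Uqcrq, which sits beside cytochrome b, stood at 61.1, 56.8 and 51.2 CPM in virgin, 93.5, 88.1 and 106 CPM in pregnant, 56.5, 51.5 and 59.8 CPM in lactating, and 55.3, 50.7 and 50.1 CPM in post-weaning libraries. Uqcr10 stood at 57.7, 45.3 and 61.1 CPM, then 94.8, 106 and 108 CPM, then 69, 76.2 and 66.9 CPM, and then 63.5, 53.6 and 61.5 CPM. Pregnant libraries were above all others for both, with log2 fold changes over virgin of 0.77 ± 0.21 (adjusted p = 0.123) and 0.91 ± 0.21 (adjusted p = 0.0649, and 0.0301 without the third lactating library). Uqcrc2, a core subunit, stood at 75 ± 7.38 CPM in virgin and 125 ± 25.2 CPM in pregnant libraries (SD, n = 3), with a log2 fold change of 0.74 ± 0.22 (adjusted p = 0.184).

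Among the other genes of complex III, Cyc1, which encodes cytochrome c1, stood at 55.8 ± 10.6 CPM in virgin and 105 ± 14.3 CPM in pregnant libraries (log2 fold change 0.92 ± 0.23, adjusted p = 0.093, and 0.0468 without the third lactating library). Uqcrfs1, the Rieske iron-sulfur protein, had a log2 fold change of 0.42 ± 0.21, Uqcrb one of 0.58 ± 0.32 and Uqcrh one of 0.41 ± 0.24, with adjusted p of 0.481, 0.552 and 0.578. Uqcr11 had 2 counts over all 12 libraries, so its level was not measurable here.

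In complex IV, cytochrome c oxidase, Cox6a1 was close to the threshold. Cox6a1, an accessory subunit of the broadly expressed isoform, stood at 134, 119 and 140 CPM in virgin, 207, 219 and 243 CPM in pregnant, 179, 160 and 194 CPM in lactating, and 157, 150 and 166 CPM in post-weaning libraries. The pregnant libraries were above all 9 others, and the lactating and post-weaning ones lay above all virgin ones as well. Its log2 fold change in pregnancy over virgin was 0.77 ± 0.17 (adjusted p = 0.0501, and 0.0204 without the third lactating library). Cox5a, which binds near the matrix side of the enzyme, had the widest range, at 238, 128 and 112 CPM in virgin, 231, 359 and 391 CPM in pregnant, 154, 181 and 110 CPM in lactating, and 125, 106 and 112 CPM in post-weaning libraries. One virgin library overlapped with the pregnant ones, and the lactating and post-weaning libraries did not. Cox6c stood at 90.9 ± 24.2 CPM in virgin and 170 ± 51.7 CPM in pregnant libraries (log2 fold change 0.90 ± 0.29, adjusted p = 0.222).

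The macrophages expressed the general isoforms of complex IV, and reads for isoforms known from heart, skeletal muscle, lung or testis were few. Per kilobase of gene length, and averaged over the 12 libraries, Cox4i1 stood at 447 CPM and Cox4i2 at 1.03, and Cox6a1 stood at 323 and Cox6a2 at 0.713. Cox6b1 stood at 339 and Cox6b2 at 6.6, Cox7a2 at 20.4 and Cox7a1 at 1.83, and Cox8a at 251 and Cox8b at 0.14. Ndufa4 stood at 339 and its paralog Ndufa4l2, a known hypoxia target, at 0.837. Cox7b2 and Cox8c had 0 counts in every library, which allows up to 0.124 to 0.548 CPM per library (3 counts, counting error only). Single libraries held much of what was seen: 58 of the 106 counts of Cox4i2 were in the third lactating library, and 52 of the 69 counts of Cox6a2 in the second virgin library.

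Of the general isoforms, Cox4i1 stood at 263 ± 41.8 CPM in virgin and 360 ± 19.1 CPM in pregnant libraries (SD, n = 3; log2 fold change 0.45 ± 0.17, adjusted p = 0.311). Cox6b1 had a log2 fold change of 0.44 ± 0.17, Cox8a one of 0.64 ± 0.21 and Cox7a2 one of 0.38 ± 0.45, with adjusted p of 0.321, 0.237 and 0.9. Cox6b2, Cox7a1 and Ndufa4l2 had log2 fold changes of 0.15 ± 0.92, 0.90 ± 1.81 and -1.57 ± 2.32, and leaving out 1 library turned the sign of each.

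**Figure D3:**
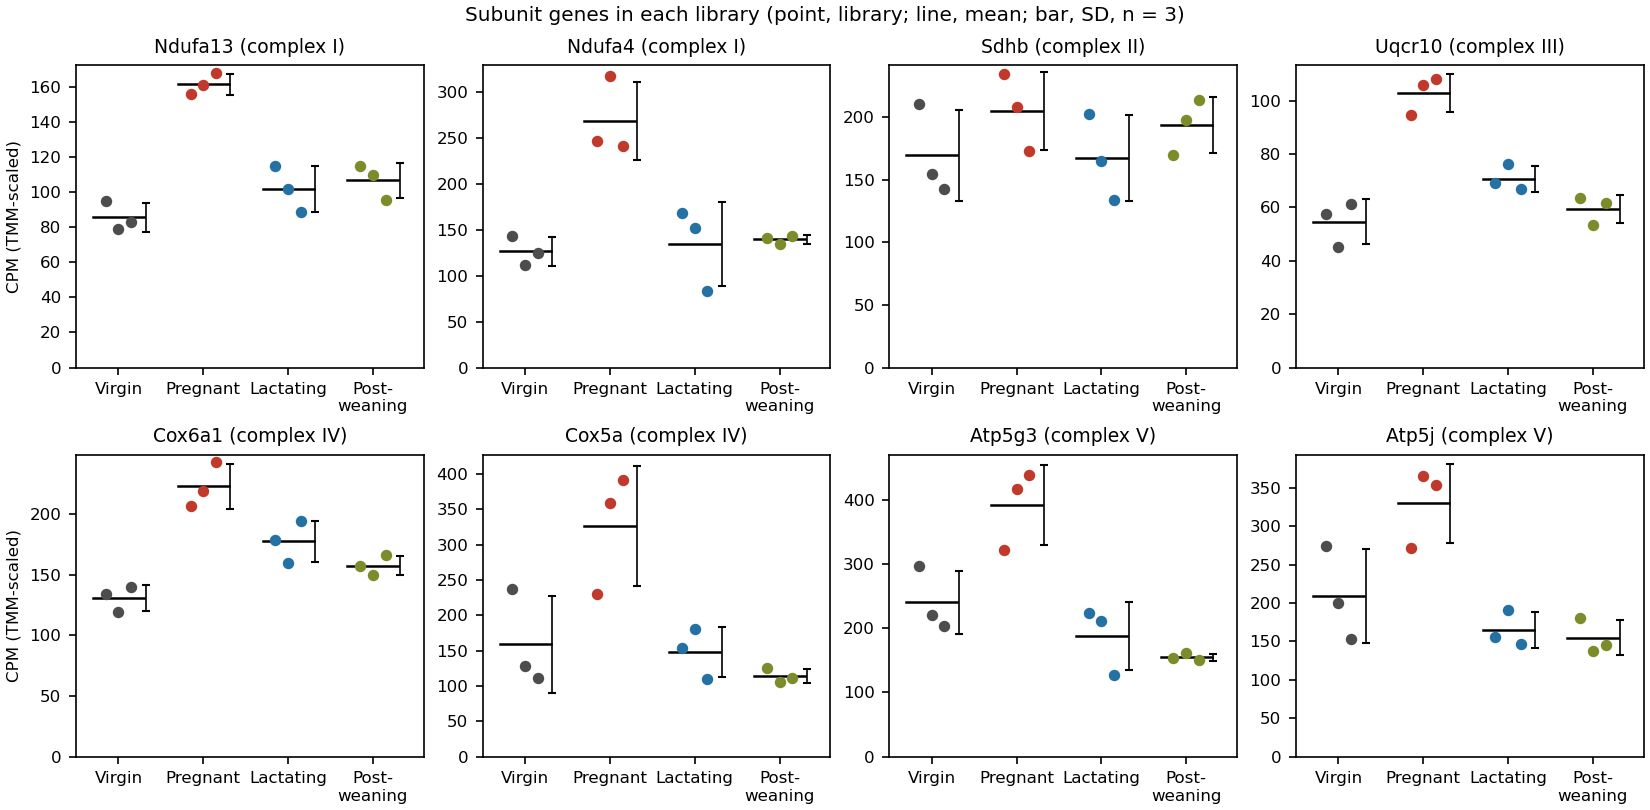
Levels of 8 subunit genes in CPM (TMM-scaled, vertical axis from 0) at the 4 stages; points are libraries, lines are means and bars are SD (n = 3). Pregnant points lie above all others for Ndufa13, Ndufa4, Uqcr10, Cox6a1 and Atp5g3, overlap with one virgin library for Cox5a and Atp5j, and overlap with all stages for Sdhb.

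Complex V, the ATP synthase, had the lowest medians of the 5 complexes in both comparisons of a later stage with pregnancy, at -0.69 in lactation and -0.84 after weaning. Atp5g3 is 1 of 3 genes that encode the same mature c subunit of the rotor ring, and lies at chr2:73908447-73912464 (Entrez 228033). It stood at 296, 220 and 204 CPM in virgin, 321, 416 and 438 CPM in pregnant, 224, 211 and 127 CPM in lactating, and 153, 161 and 150 CPM in post-weaning libraries. All 3 pregnant libraries were above the other 9, and all post-weaning libraries were below all virgin ones. It was the only member that passed the edgeR test of any difference between stages (adjusted p = 0.0299), which 3.35% of all genes passed. With 1 library left out, between 0 and 12 members passed that test, the 12 without the third lactating library and the 0 without the second virgin or lactating library or any pregnant or post-weaning one.

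The 3 genes of the c subunit were far apart in the reads counted for them. Per kilobase and over all libraries, Atp5g3 stood at 358 CPM, Atp5g1 at 25.5 and Atp5g2, with 68 counts in all, at 0.748. Whether reads shared with pseudogene copies bear on these levels was not tested. Atp5g1 stood at 20.3 ± 1.68 CPM for virgin, 29.6 ± 1.87 for pregnant, 22.7 ± 2.95 for lactating and 16.1 ± 0.292 for post-weaning libraries (SD, n = 3), and its pregnant libraries were above all others. Its log2 fold change over virgin was 0.55 ± 0.33 (adjusted p = 0.593).

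Atp5j, which encodes coupling factor 6 of the stator stalk, lies at chr16:84827871-84835857. It stood at 274, 200 and 153 CPM in virgin, 271, 365 and 353 CPM in pregnant, 156, 191 and 147 CPM in lactating, and 181, 138 and 146 CPM in post-weaning libraries. The lactating and post-weaning libraries were all below the pregnant ones, and the virgin ones overlapped with them. Atp5k, a small subunit that helps the enzyme to form dimers, stood at 22.3, 18.5 and 17.3 CPM in virgin, 35, 45.2 and 92.1 CPM in pregnant, 25.8, 23.4 and 52.7 CPM in lactating, and 24.6, 21 and 19.2 CPM in post-weaning libraries. Its log2 fold change in pregnancy, 1.57 ± 0.44, was the highest of all members (adjusted p = 0.148, and 0.0424 without the third lactating library). Atp5b, the catalytic beta subunit and the member with the most counts, stood at 350 ± 32.5 CPM for virgin, 477 ± 32.9 for pregnant, 495 ± 60 for lactating and 394 ± 72.7 for post-weaning libraries (SD, n = 3).

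From pregnancy to lactation most members were lower. The lactating and post-weaning comparisons with pregnancy share the pregnant libraries with the comparison above, so their directions are not independent of it. Of 81 members, 75 had a log2 fold change below 0 in lactation against pregnancy and 6 above, where 44% of all genes were above 0. The median was -0.54 for the members and -0.14 for all genes. Lactating libraries were all below pregnant ones for 39 members, against 17.1% of all genes. By complex these were 16 of I, 1 of II, 4 of III, 8 of IV and 10 of V. In edgeR 2 members fell, where 1.2% of all genes did, both of complex V. Atp5g3 fell by 1.07 on the log2 scale (SE 0.24, adjusted p = 0.0324, range over other settings 0.000451 to 0.138), and Atp5j fell by 1.00 (SE 0.24, adjusted p = 0.0389, range 0.00174 to 0.166).

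Both calls were lost when certain single libraries were left out. Without the third lactating library, Atp5g3 had a log2 fold change of -0.90 (adjusted p = 0.0298) and Atp5j one of -0.98 (adjusted p = 0.0544), and 3 members fell, namely Atp5g3, Ndufa4 and Uqcrq, where 1.82% of all genes did. The members' median was then -0.56, beside -0.25 for all genes. The call of Atp5g3 was lost without any 1 of the pregnant or post-weaning libraries or the second lactating one, at adjusted p from 0.0528 to 0.13. That of Atp5j was lost without any 1 library except the first or the third virgin one, at adjusted p from 0.054 to 0.166. With scaling by library totals in place of TMM, 14 members fell, where 2.86% of all genes did, and the median was -0.82, beside -0.43 for all genes.

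One month after weaning most members were again below their pregnant level. Against pregnancy, 75 of 81 members had a log2 fold change below 0 in post-weaning libraries and 6 above, where 50.3% of all genes were above 0. The median was -0.56 for the members and 0.01 for all genes. Post-weaning libraries were all below pregnant ones for 50 members, against 13.3% of all genes, by complex 21 of I, 0 of II, 6 of III, 9 of IV and 14 of V. In edgeR 1 member fell, Atp5g3, by 1.34 on the log2 scale (SE 0.24, adjusted p = 0.0316, range over other settings 1.77e-05 to 0.169), where 0.142% of all genes fell. Without the third lactating library 8 members fell, where 0.603% of all genes did, namely Atp5g3, Atp5j, Atp5mpl, Cox5a, Ndufa4, Ndufc1, Ndufc2 and Uqcrq. The call of Atp5g3 was lost without any 1 of the pregnant or post-weaning libraries, the second or the third virgin one or the second lactating one, at adjusted p from 0.0503 to 0.169.

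**Figure D4:**
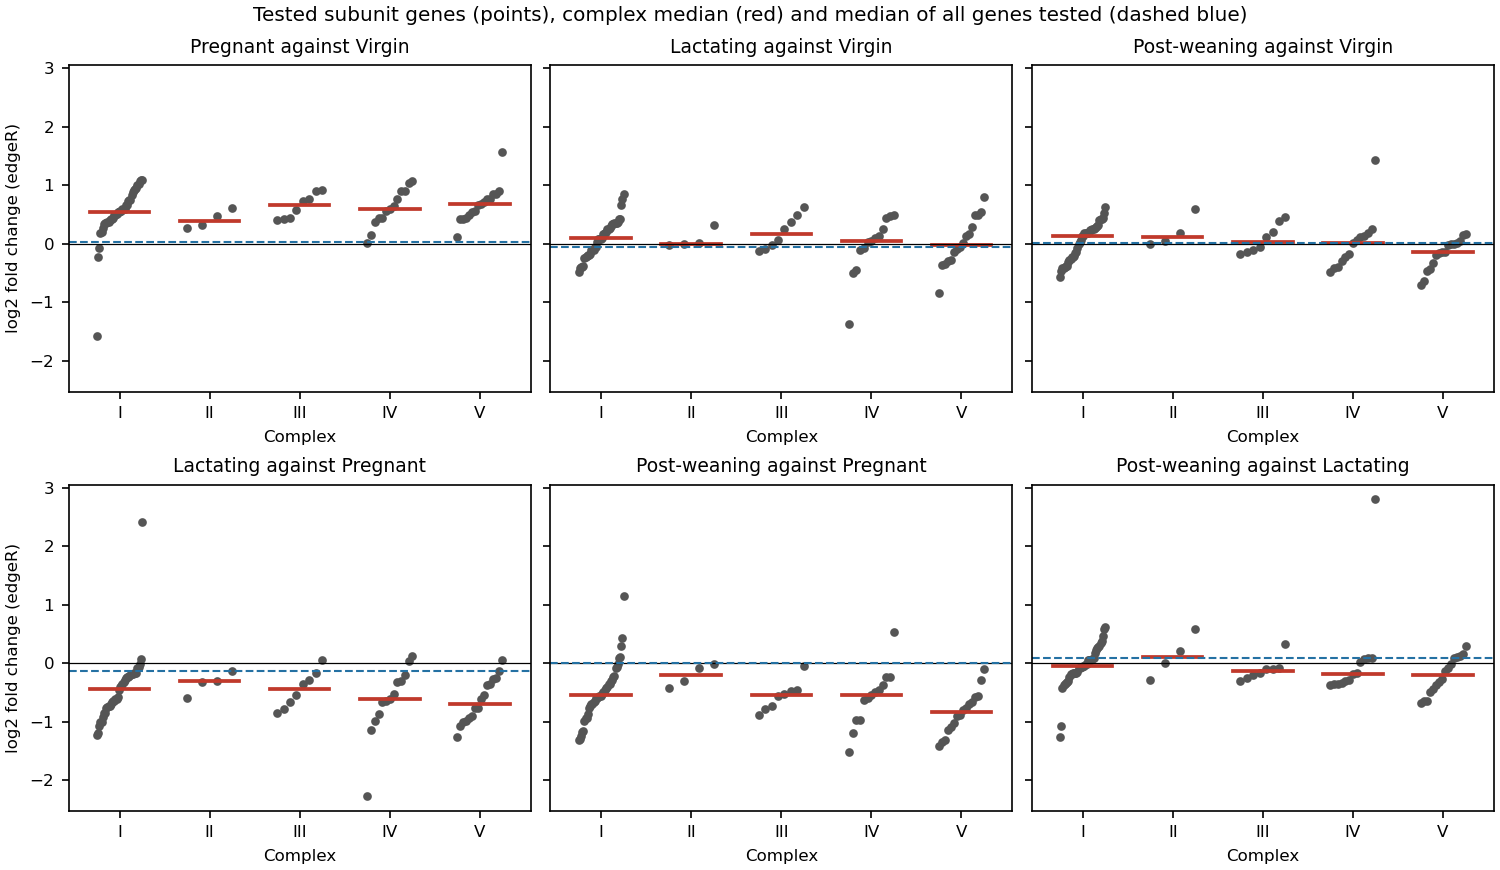
Log2 fold changes (edgeR) of the 81 tested members by complex in the 6 comparisons between stages; grey points are genes, red lines complex medians and dashed blue lines the median of all genes tested. Pregnant against virgin the complex medians lie between 0.40 and 0.68 and the median of all genes at 0.03. Lactating and post-weaning against virgin, the points straddle 0, except in complex II after weaning, where none of the 4 lies below 0.

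Between lactating and virgin libraries no member passed the test. The median log2 fold change was 0.08 for the members and -0.06 for all genes, and turned to -0.17 beside -0.28 for all genes under scaling by library totals. With edgeR, 0 of 81 members passed, where 1.94% of all genes did. At an unadjusted p under 0.05 there were 4 members, against 16.8% of all genes. DESeq2 called 1 member, Ndufb9, where it called 9.64% of all genes, and limma-voom called 0, where it called 2.16%. For 11 members the lactating libraries were all above the virgin ones, against 8% of all genes, and for 0 members all below, against 9.34%. With the third lactating library left out the median was 0.07, beside -0.15 for all genes, and 0 members passed, where 3.1% of all genes did.

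Post-weaning against virgin, the median log2 fold change was 0.01 for the members and 0.02 for all genes. With edgeR, 0 members passed, as did 0 of all genes. There were 2 members at an unadjusted p under 0.05, against 6.04% of all genes. DESeq2 and limma-voom each called 0 members, where they called 1.01% and 0.11% of all genes. The post-weaning libraries were all above the virgin ones for 7 members, against 8.83% of all genes, and all below for 5, against 6.55%. In complex V 11 of 16 genes were below 0, with Atp5g3 at -0.63 ± 0.24 (adjusted p = 0.783). Post-weaning against lactating, the median was -0.09 for the members and 0.08 for all genes, and 0.09 beside 0.29 under scaling by library totals. Again 0 members passed in edgeR, DESeq2 or limma-voom, which called 0.923%, 7.41% and 1.67% of all genes. In edgeR 1 member had an unadjusted p under 0.05, against 15.1% of all genes. Leaving out the third lactating library, the median was -0.05, beside 0.21 for all genes, and 0 members passed, where 1.8% of all genes did.

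Within a stage, replicates of these genes were closer than those of most genes. The median coefficient of variation of the tested members was 20.5% for virgin, 18.4% for pregnant, 20.6% for lactating and 13.4% for post-weaning libraries, where for all tested genes it was 44.9%, 31%, 66.3% and 34.6%. In the third lactating library 7 members (8.64%) lay 1 log2 unit or more below the mean of the other lactating libraries, while 34.4% of all genes did. Neither comparison was matched for level. A filter of 5 CPM in 3 libraries kept 78 of the 81 members and 10225 of the 12672 genes, so more of all genes were low. Atp5c1, the gamma subunit of the ATP synthase rotor, stood at 242, 245 and 72.2 CPM in the lactating libraries. Cox7b stood at 152, 156 and 38.4 CPM and Ndufb6 at 143, 101 and 36.8 CPM, so that the third library was the lowest for each.

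Promoter sequences are shown for members on which the comparisons turn, to set genes that moved alike beside each other. The reference table (RefSeq, GRCm38.p6) held windows of 300 bases, from 250 before to 50 after a start, for 70 of the 88 genes. Windows were searched on both strands for 3 cores chosen from background knowledge after the window of Atp5j had been seen, since factors of the ETS family (GABP), NRF1 and YY1 are known regulators of such genes. The cores were CCGGAAG for ETS, GCATGCG for NRF1 and AAGATGGCG for YY1, and NRF1 matches on the 2 strands overlap as CGCATGCG. The windows below run 5′ to 3′ on the strand of the gene, which is the minus strand for each, with matches in capitals.
Ndufa13: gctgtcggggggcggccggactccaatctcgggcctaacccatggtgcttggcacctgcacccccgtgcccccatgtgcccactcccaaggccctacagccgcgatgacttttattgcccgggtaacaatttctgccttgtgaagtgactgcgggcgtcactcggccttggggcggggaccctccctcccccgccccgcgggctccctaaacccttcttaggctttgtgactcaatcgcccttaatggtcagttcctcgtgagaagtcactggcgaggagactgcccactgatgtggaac
Cox6a1: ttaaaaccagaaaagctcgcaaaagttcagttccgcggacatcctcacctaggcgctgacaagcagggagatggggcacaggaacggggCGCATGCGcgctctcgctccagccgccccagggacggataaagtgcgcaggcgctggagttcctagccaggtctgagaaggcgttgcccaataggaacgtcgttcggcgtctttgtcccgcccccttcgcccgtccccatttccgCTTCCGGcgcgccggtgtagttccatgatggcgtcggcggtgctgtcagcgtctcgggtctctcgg
Atp5g3: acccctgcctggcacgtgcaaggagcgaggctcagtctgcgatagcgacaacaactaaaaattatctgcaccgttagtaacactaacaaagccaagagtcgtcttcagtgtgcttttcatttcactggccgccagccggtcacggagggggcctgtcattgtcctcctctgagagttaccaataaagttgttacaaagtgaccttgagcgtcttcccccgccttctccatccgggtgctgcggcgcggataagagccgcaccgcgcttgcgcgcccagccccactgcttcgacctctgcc
Atp5j: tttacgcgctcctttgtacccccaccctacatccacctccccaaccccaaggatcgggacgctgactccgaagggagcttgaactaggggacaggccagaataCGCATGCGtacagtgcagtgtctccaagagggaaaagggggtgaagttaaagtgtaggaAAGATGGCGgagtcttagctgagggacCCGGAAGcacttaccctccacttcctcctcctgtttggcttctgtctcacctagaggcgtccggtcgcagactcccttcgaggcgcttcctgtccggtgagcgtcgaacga

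The windows lie at chr8:69901971-69902270 for Ndufa13, chr5:115348909-115349208 for Cox6a1, chr2:73911277-73911576 for Atp5g3 and chr16:84834927-84835226 for Atp5j, the last being 1 of 2 starts listed for that gene. The window of the other start, chr16:84835576-84835875, held none of the 3 cores. The Atp5j window shown held all 3, Cox6a1 held the ETS and NRF1 cores, and Ndufa13 and Atp5g3 held none of these letters. The ETS core was in the windows of 17 members (24.3%), against 12.9% of protein-coding genes and 9.93% of all genes in the table. The NRF1 core was in 11 members (15.7%), against 4.96% and 4.01%, and the YY1 core in 7 (10%), against 2.14% and 1.64%. At least 1 core was found in 28 members (40%), against 18.4% and 14.4%. The median log2 fold change of pregnant against virgin libraries was 0.55 in the 26 tested members with a core and 0.56 in the 40 without. A match describes the letters only and is not a measured binding site.

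Other mitochondrial gene lists were read in the same fit. Genes of the mitochondrial ribosome, which translates the subunits encoded by mitochondrial DNA, had a median log2 fold change of 0.57 in pregnancy against virgin. Of 77 tested, 69 were above 0, against 51.6% of all genes, and 41 had all pregnant libraries above all virgin ones, against 13.6%. The edgeR test called 0 of them, and 0.442% of all genes higher. Their share of counts ran from 0.251% to 0.299% in pregnant libraries, above the 0.182% to 0.187% of virgin, 0.144% to 0.233% of lactating and 0.165% to 0.186% of post-weaning ones. Against pregnancy their median was -0.47 in lactation, or -0.61 without the third lactating library, and -0.57 after weaning. Without that library 3 were called in lactation against pregnancy (Mrpl15, Mrpl34 and Mrps18c), where 5.13% of all genes were. After weaning against pregnancy 2 were then called (Mrpl57 and Mrps18c), where 2.29% of all genes were.

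Assembly factors, which build the complexes but are not part of them, had a median of 0.37 in pregnancy against virgin. Of 43 tested, 35 were above 0, against 51.6% of all genes. The edgeR test called 1 of them higher, where it called 0.442% of all genes higher. This was Coa3, which is needed to make the catalytic subunit COX1 of complex IV. Coa3 stood at 25.4, 27.3 and 30.8 CPM in virgin, 54.5, 64.4 and 74.3 CPM in pregnant, 30.7, 38.2 and 31.7 CPM in lactating, and 43.4, 45.7 and 53.8 CPM in post-weaning libraries. Pregnant libraries were above all others and the post-weaning ones above all virgin ones, at a log2 fold change in pregnancy of 1.21 ± 0.26 (adjusted p = 0.0466, and 0.0184 without the third lactating library). Without that library Cox15 was also called, in lactation against virgin and against pregnancy, where 3.1% and 5.13% of all genes were.

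Citric acid cycle genes had a median of 0.32 in pregnancy against virgin, with 15 of 16 above 0 and 0 passing. In that comparison 51.6% of all genes were above 0 and 1.32% passed. The carriers and pores that exchange substrates had a median of 0.33, with 9 of 11 above 0 and 0 passing. Among the latter, Slc25a4, an ADP/ATP carrier, fell from pregnancy to lactation by 0.93 on the log2 scale (SE 0.22, adjusted p = 0.0355), and by 0.95 without the third lactating library (adjusted p = 0.0406). It stood at 192, 190 and 142 CPM in pregnant and 93.4, 94.3 and 88.1 CPM in lactating libraries, which did not overlap. Of all genes, 1.2% were called lower in that comparison, and 1.82% without the third lactating library. Regulators of mitochondrial biogenesis such as Tfam, Nrf1 and Esrra had a median of -0.09 in pregnancy against virgin, with 8 of 16 above 0 and 0 passing. Their share of counts was 0.0276% to 0.0392% in virgin libraries and 0.0305% to 0.0337% in pregnant libraries, which overlapped. Without the third lactating library, Mterf3 and Twnk were called in lactation against virgin, where 3.1% of all genes were. Twnk was then also called in lactation against pregnancy, where 5.13% were. Proteins of the cytosolic ribosome had a median of 0.31 in pregnancy against virgin, with 71 of 93 above 0 and 0 passing.

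The 13 subunits encoded by mitochondrial DNA took 1.32% to 2.04% of counts in virgin libraries and 2.1% to 2.42% in pregnant ones. They took 1.28%, 1.84% and 2.26% in lactation and 0.885% to 1.43% after weaning, so by this share pregnancy overlapped with lactation only. That overlap came from the third lactating library, at 2.26%, and every other library had a share below the pregnant ones. Gene by gene on the TMM scale, most of the 13 overlapped between pregnant and virgin or lactating libraries. Pregnant libraries lay above all virgin ones for 1 of the 13, against 13.6% of all genes. Lactating libraries lay below all pregnant ones for 2, against 17.1%. The median log2 fold change was 0.27 in pregnancy and 0.35 in lactation against virgin. In post-weaning libraries all 13 were below 0 against virgin, pregnant and lactating alike, with medians of -0.76, -0.95 and -0.88, and 0 passed the edgeR test in any comparison. Without the third lactating library the medians against virgin were 0.28 in pregnancy and 0.26 in lactation, and 12 of 13 were below 0 after weaning against lactation, with a median of -0.79. ATP6 alone was then called, in pregnancy against virgin and after weaning against pregnancy, where 3.26% and 2.29% of all genes were. For example, ND1 of complex I stood at 3770, 3310 and 2410 CPM in virgin, 4350, 4930 and 2630 CPM in pregnant, 3910, 4600 and 4300 CPM in lactating, and 2700, 1900 and 1560 CPM in post-weaning libraries. Whether nuclear and mitochondrial subunits differ in their course was not tested.

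**Figure D5:**
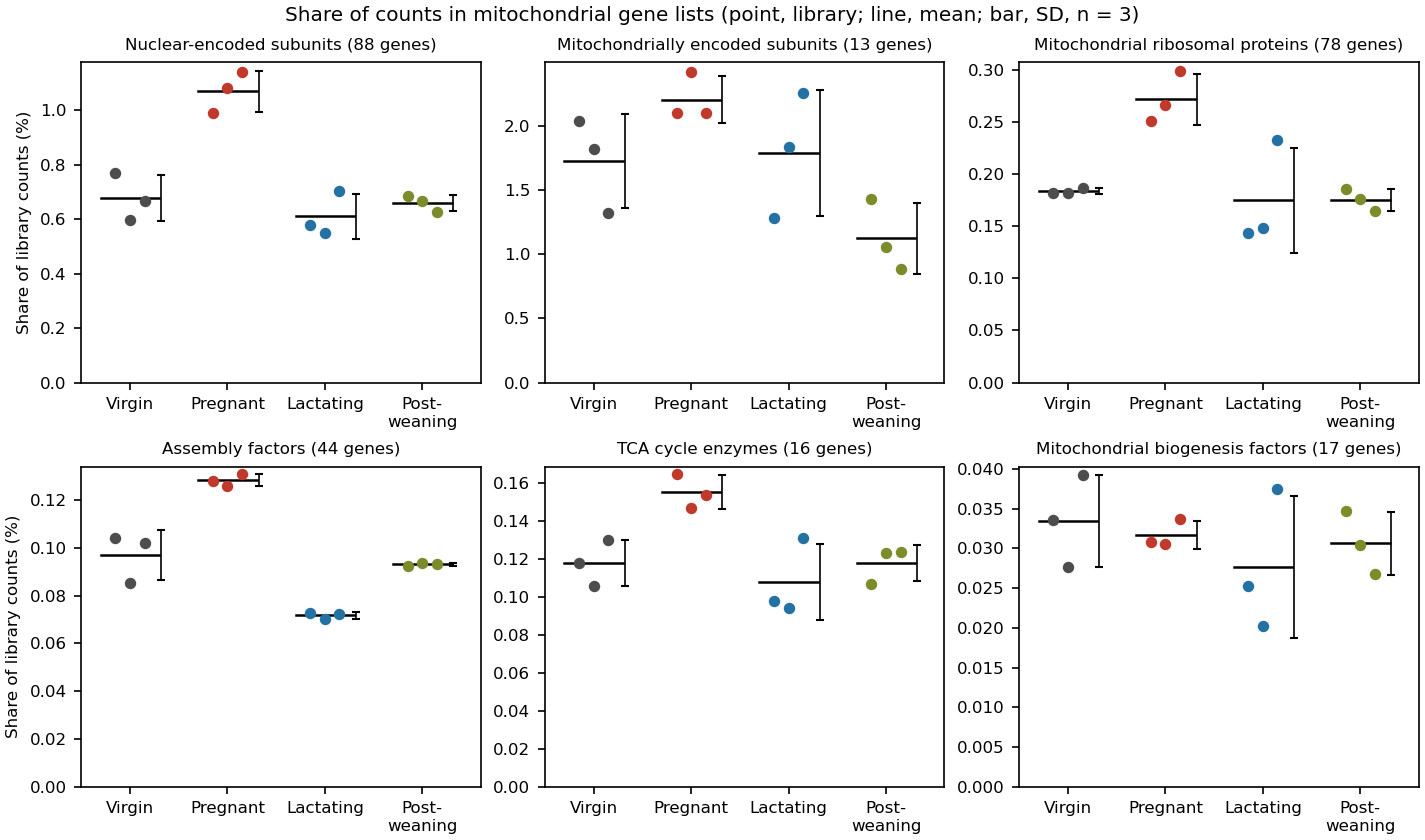
Share of library counts (%) taken by the nuclear-encoded subunits and by 5 other mitochondrial lists; points are libraries, lines are means and bars are SD (n = 3). The pregnant points are above all others for nuclear-encoded subunits (0.99% to 1.14%), mitochondrial ribosomal proteins, assembly factors and citric acid cycle (TCA) enzymes, but not for mitochondrially encoded subunits or biogenesis factors. By this share of library totals, without TMM scaling, only the third lactating library reaches the pregnant range for mitochondrially encoded subunits.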

How the data were processed

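Read counts per gene from 12 SMART-Seq v4 libraries, sequenced in 1 NextSeq 500 run, were deposited by the authors as whole-number counts made with featureCounts against mm10, per the submitters' processing notes. The deposited table also gives a length in bases per gene, used for levels per kilobase. No source used here names the aligner, the strand setting or versions, so reads from overlapping or antisense genes may be mixed. Many subunit genes have processed pseudogenes, and levels of genes that share reads with such copies are uncertain.

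Symbols were matched through Entrez identifiers for 25275 of 27179 genes (93%), and the genes left unmatched held at most 0.825% of a library. One model with a mean per stage was fitted with edgeR 4.0.16 in R 4.3.3 (TMM, filterByExpr by stage, robust quasi-likelihood), adjusted by Benjamini-Hochberg over 12672 genes with a threshold of 0.05. The standard error is the log2 fold change over the root of F. The common biological coefficient of variation was 0.856. The fit was first tested on simulated counts for pregnant against virgin libraries. It called 1 of 50 genes set to a 2-fold rise, 11 of 50 at 4-fold and 27 of 50 at 8-fold. At 0.5-fold it called 0 of 50. Of its 39 calls, 0 were false.

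Each stage has 3 replicates, described by the submitters as biological. A chi-square comparison of counts gave at least 29.5 per degree of freedom for every pair within a stage. Each pair thus differed by more than counting error. Whether replicates shared an animal or a sort was not tested. No source says that they came from separate animals, so p-values measure the spread between these libraries. The members, lists and tests were chosen with earlier results of these data known. Genes were named if called, if among the 3 with the smallest p for any difference or the highest level per length in their complex, or as complex II subunits, c subunit genes and tissue isoforms with their general counterparts. One member is counted but not reported here by name. Other genes named were chosen after their values were seen. Alternatives were other scalings, filters and tools (DESeq2 1.42.0, limma 3.58.1), a replicate block, 2-stage fits and leaving out each library. Other scalings of the counts of separated libraries, and the related lists without the third lactating library, were chosen after seeing the data.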

Additional observations from a re-analysis of the deposited data

How the results depend on the processing

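The direction of the median of the members was kept in every setting tried for pregnancy against virgin, lactating against pregnant and post-weaning against pregnant. The number of single genes called was not stable. The share of all genes called, in either direction, is in brackets. For pregnant against virgin (1 member, 1.32%) it was 2 with library totals only (1.37%), 2 with TMM computed without milk, epithelial, ribosomal and subunit genes (1.31%), 9 with DESeq2 (5.29%), 5 with limma-voom (2.45%), 0 with no filter on low counts (0.89%), 3 with a filter of 5 CPM in 3 libraries (1.83%), and 0 to 7 with 1 library left out (3.26% for the 7). For lactating against virgin (0 members, 1.94%) it was 1 with DESeq2 (9.64%). For lactating against pregnant (2 members, 3.85%) it was 14 with library totals (4.48%), 10 with DESeq2 (12%), 4 with limma-voom (5.57%), 4 with the 5 CPM filter (5.23%), 0 with only the 2 stages compared (1.35%), and 0 to 4 with 1 library left out (3.17% for the 4). For post-weaning against pregnant (1 member, 0.718%) it was 4 with library totals (0.718%), 13 with DESeq2 (4.05%), 3 with limma-voom (1.39%), 2 with no filter (0.52%), 14 with only the 2 stages compared (5.02%), and 0 to 8 with 1 library left out (2.29% for the 8). For any difference between stages (1 member, 3.35%) it was 2 with RLE size factors (3.46%), 6 with library totals (3.38%), 17 with DESeq2 (12.3%), 5 with limma-voom (6.03%), 2 with no filter (2.35%), 5 with the 5 CPM filter (4.4%), and 0 to 12 with 1 library left out (5.76% for the 12). With 1 library left out, the highest counts came without the third lactating library, except the 4 for lactating against pregnant, which came without the first virgin library. The cause of these differences was not tested.

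With library totals only, the median log2 fold change of the members turned from 0.08 to -0.17 for lactating against virgin and from -0.09 to 0.09 for post-weaning against lactating, and moved to -0.82 for lactating against pregnant and -0.66 for post-weaning against pregnant. All genes moved with them, to -0.28, 0.29, -0.43 and -0.08. With 1 library left out, the median ranged from 0.52 to 0.71 for pregnant against virgin, 0 to 0.15 for lactating against virgin, -0.04 to 0.11 for post-weaning against virgin and -0.59 to -0.44 for lactating against pregnant. In the main fit 42 and 26 members had separated pregnant libraries, against 13.6% and 3.35% of all genes. Over other scalings, and for the 26 also without the third lactating library, these counts ranged from 39 to 46 and from 24 to 33. The shares of all genes under those settings are not given here. In pregnancy against virgin and with 1 library left out, the log2 fold change of Cox6b2 ranged from -0.10 (without the first virgin library) to 0.41, and was -0.06 without the third pregnant one. That of Cox7a1 ranged from -0.44 (without the first pregnant library) to 1.85, and that of Ndufa4l2 from -3.06 to 2.41 (without the third virgin library).

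Replicate numbers did not pair the samples: in 18 pairs of libraries with the same number, correlations of deviations from the stage means ran from -0.08 to 0.09, with 0 over 0.1. With the replicate block, 0 members were called for pregnant against virgin (Ndufa13 at an adjusted p of 0.0708) and 0 for lactating against pregnant. It also called 0 members for post-weaning against pregnant and 0 for any difference. The share of all genes called was then 0.789%, 2.73%, 0.276% and 1.76% in that order. With 3 libraries a stage the number of libraries limits the precision for a single gene, and 7 members had too few reads to be tested.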
